A study of Mus musculus with 8 samples.

Results

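The comparison set 2 arrays of lymphoid progenitors against 2 arrays of myeloid progenitors, all 4 from the bone marrow of C57BL/6 mice with intact IRF-8, and took every gene of the deposited gene table. These are 4 of the 8 arrays of the series and all 18132 genes. The lymphoid cells were all-lymphoid progenitors (ALP), gated as negative for lineage markers, Ly6D and B220 and positive for c-kit, Flk2 and the IL-7 receptor alpha chain. The myeloid cells were common myeloid progenitors (CMP), gated as lineage-negative, c-kit high, CD34-positive and Flk2-positive, and negative for Sca-1, CD11c, CD16/32 and CD115. Both populations were sorted a second time before RNA was taken, and so share c-kit, Flk2 and the absence of lineage markers. RNA from small numbers of cells was amplified with a Nugen pico kit and hybridised to Illumina MouseRef-8 v2 bead arrays. The other 4 arrays are labelled as ALP and CMP of IRF-8 knockout mice on the same strain, 2 of each. That genotype rests on the sample labels alone, since the design text of the series names only wild-type mice. IRF-8 is a transcription factor of monocytes, dendritic cells and B cells, and the title of the series concerns its part in neutrophil output and dendritic cell commitment.

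Bone marrow progenitors that have lost stem cell function still carry traces of several programmes at low level. Lymphoid progenitors respond to IL-7 and begin to open the genes that cut and join antigen receptor DNA. Myeloid progenitors make the proteins of neutrophil primary granules, such as myeloperoxidase and serine proteases, long before granules fill, and can still give rise to monocytes, granulocytes, mast cells, platelets and red cells.

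The levels below are the deposited log2 values, in which the lowest gene stood at 2.12 and the highest at 15.7. A gene was counted as detected on an array where its probe had a detection p under 0.05, or, for genes without a linked probe, where its level lay above the lowest level at which genes were detected on that array, 4.38 to 4.83 in these 4 arrays. Between 43.3% and 48.0% of the 25697 probes were detected on each of the 4 arrays. ALP array 2 stood apart from the others, detecting the fewest probes. Its mean Pearson r with the remaining 7 arrays of the series, taken over genes, was 0.897, against 0.932 to 0.948 for those arrays. The ALP arrays correlated at 0.904 with each other and the CMP arrays at 0.963. The labels do not say whether the 2 arrays of a group came from separate animals, and each p-value therefore reflects the spread of these samples alone, which may be technical.

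A total of 134 genes differed between ALP and CMP at an adjusted p under 0.05 in limma with Benjamini-Hochberg adjustment, 0.739% of all genes tested. Of these, 61 genes (0.336%) were higher in ALP and 73 genes (0.403%) were lower. The ALP and CMP arrays did not overlap in any of the 134, a pattern that 39.7% of all genes showed, 20.4% with ALP above and 19.3% with ALP below. Sizes ran between 1.42 and 6.07 on the log2 scale for the genes higher in ALP and between 1.44 and 6.50 for those lower. For 35 of the 61 and 34 of the 73 the dimmer population was not detected on either array, so that their fold is a lower bound. Where a gene is low in bulk RNA, fewer cells with the transcript and less transcript per cell cannot be told apart. The count was 0 without CMP array 2 and 25 without CMP array 1, of which 13 were among the 134, and no call below holds without CMP array 2. It was 904 without ALP array 1, 134 without ALP array 2, of which 80 were the same genes, 82 when 1 of the knockout ALP arrays was left out and 60 when 1 of the knockout CMP arrays was. Among the genes named below, the calls of Gimap7, Cd22, Egr1, Il12a, Ets1, Hdc, Cd33, Klf4 and Mgst1 were lost with array weights, those of Ets1, Ifi30 and Mgst1 with an intensity trend and robust fitting, that of Egr1 when genes were limited to those detected on 2 or more arrays, and those of Cd33, Mgst1, Pzp and Batf3 in 1 or more settings based on the scanner signals. With the replicate number as a block 104 genes passed, of which 89 were among the 134. The calls of Lck, Egr1, Ets1, Klf4 and Cd22 were among those lost in that fit. With the 4 wild-type arrays alone no gene passed in limma, while 1570 genes had an unadjusted p under 0.05, against 11% of all genes with all 8 arrays fitted.

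**Figure D1:**
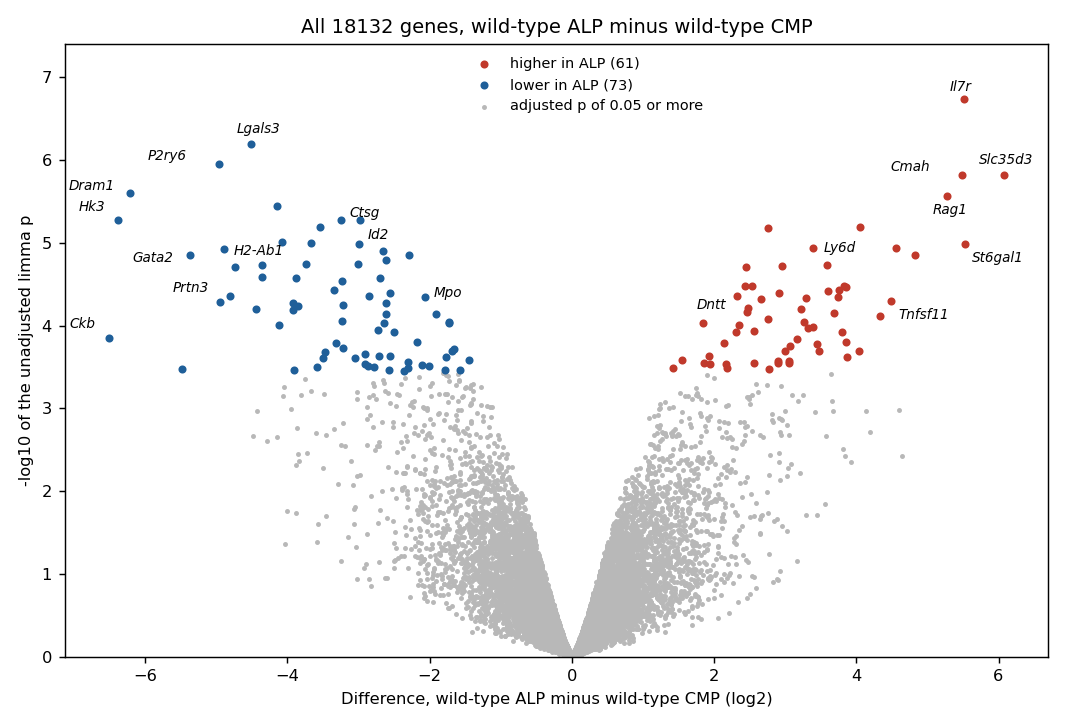
Difference between wild-type ALP and wild-type CMP (log2, x axis) against −log10 of the unadjusted limma p (y axis) for all 18132 genes, with the 61 genes higher in ALP in red and the 73 lower in blue. Il7r has the smallest p of all, and Slc35d3 and Ckb lie at the ends of the x axis, at 6.07 and -6.50.

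Il7r and Rag1 led the lymphoid genes, and Prtn3 and Ctsg were among the granule protease genes lower in ALP. Stretches of their promoters are shown because they hold matches to motifs of the factor families best known in these lineages. The sequences are the 250 bases before each gene's start, on the gene's strand, from RefSeq (GRCm38.p6), with capitals marking matches on either strand to an E-box (CANNTG), an ETS and PU.1 motif (AGGAAGT) and a RUNX motif (TGTGGT). E-box and RUNX matches overlap in a stretch each of the Rag1 and Ctsg promoters.
Rag1 (chr2:101649533-101649782, minus strand): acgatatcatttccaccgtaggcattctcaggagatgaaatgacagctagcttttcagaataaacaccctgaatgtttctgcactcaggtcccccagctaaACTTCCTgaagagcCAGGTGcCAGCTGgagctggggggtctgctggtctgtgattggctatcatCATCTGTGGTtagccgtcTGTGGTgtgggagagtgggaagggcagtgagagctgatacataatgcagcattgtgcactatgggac
Il7r (chr15:9529877-9530126, minus strand): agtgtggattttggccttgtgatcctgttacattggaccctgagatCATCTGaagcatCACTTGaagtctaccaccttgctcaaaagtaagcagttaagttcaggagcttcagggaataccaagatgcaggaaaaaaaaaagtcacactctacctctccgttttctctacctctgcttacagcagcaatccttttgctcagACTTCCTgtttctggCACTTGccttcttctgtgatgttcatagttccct
Ctsg (chr14:56102575-56102824, minus strand): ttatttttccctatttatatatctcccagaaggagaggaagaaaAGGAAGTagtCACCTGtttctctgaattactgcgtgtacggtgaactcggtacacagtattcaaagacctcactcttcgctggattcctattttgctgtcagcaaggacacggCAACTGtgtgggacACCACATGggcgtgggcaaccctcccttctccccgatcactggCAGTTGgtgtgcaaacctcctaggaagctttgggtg
Prtn3 (chr10:79879417-79879666, plus strand): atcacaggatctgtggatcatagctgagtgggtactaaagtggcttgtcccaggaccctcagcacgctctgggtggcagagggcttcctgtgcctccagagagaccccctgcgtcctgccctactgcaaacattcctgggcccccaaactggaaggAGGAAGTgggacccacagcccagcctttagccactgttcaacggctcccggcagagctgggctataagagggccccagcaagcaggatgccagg
The 4 promoters each hold 1 match to the ETS and PU.1 motif. That motif was found in 18.5% of the 65 promoters of genes higher in ALP and in 18.6% of the 70 promoters of genes lower in ALP, against 7.69% of all 32851 promoters of that length. Matches to the RUNX motif were found in 23.1% of promoters of genes higher in ALP, 10% of promoters of genes lower in ALP and 14% of all promoters. For the E-box the shares were 72.3% and 61.4%, against 66.2% of all promoters. A C/EBP motif (TTNNGNAA) was found in 38.5% and 28.6%, against 36.8%, and a GATA motif (AGATAA) in 9.23% and 5.71%, against 9.99%. Promoters were matched for 47 of the 61 genes higher in ALP and 56 of the 73 lower, and some genes have several. A match describes the letters only, and the shares were not tested.

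The IL-7 receptor gene and the recombinase gene were among the highest-ranking differences. Il7r, which encodes the alpha chain used in the ALP gate, had levels of 9.21 and 8.86 in ALP, against 3.64 and 3.38 in CMP. It was not detected in CMP and was at least 22.9-fold higher in ALP (log2 difference 5.52 ± 0.24 SE, adjusted p = 0.0033). The sort used this receptor, so its difference is a check of the gate and not a result. Rag1, the catalytic subunit of the V(D)J recombinase, had levels of 8.80 and 9.19 in ALP, against 3.74 and 3.71 in CMP, at least 22.3-fold higher in ALP (5.27 ± 0.35 SE, adjusted p = 0.00705). All CMP values of both genes lay below the detection floor and all ALP values far above it.

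Terminal transferase, by contrast, was detected in both populations. Dntt, which adds untemplated bases at recombining junctions, had levels of 11.11 and 10.68 in ALP, against 8.66 and 8.19 in CMP. Both CMP arrays stood well above the floor, and the difference of 2.47 ± 0.28 SE passed the test (adjusted p = 0.0196). Of the 16 measured genes of antigen receptor rearrangement and the pre-B receptor, these 2 were higher in ALP and Cd22 was lower. Over all genes the shares were 0.336% and 0.403%. Cd22, an inhibitory receptor of B cells that binds sialic acid, was not detected in ALP, at 2.87 and 3.27, against 5.02 and 4.66 in CMP (at least 1.17-fold lower, adjusted p = 0.0416). The median difference over the 16 genes was 0.06, against 0.02 over all genes. Blnk, an adaptor of the pre-B receptor, had a larger difference than Dntt, 4.14 ± 0.74 SE, at an adjusted p of 0.0793. The partner of Rag1, Rag2, was not detected on any of the 4 arrays, and the same held for Pax5, a factor of committed B cells.

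Of 22 lymphoid transcription factors measured, 1 passed the test, higher in ALP, against 0.336% of all genes. Their median difference was 0.26 (0.13 without ALP array 1 and 0.53 without CMP array 2). The call was Ets1, a factor of the ETS family needed for lymphocyte development, at 6.30 and 7.11 in ALP against 3.93 and 3.68 in CMP, where it was not detected (at least 4.56-fold higher in ALP, adjusted p = 0.0435). Bcl11a, Tcf7 and Notch1 were higher on both ALP arrays but did not pass, with differences of 1.5, 1.40 and 1.18 and adjusted p of 0.208, 0.109 and 0.328. Ebf1, the factor that opens the B cell programme, was at 3.88 and 5.28 in ALP against 4.04 and 4.60 in CMP, and was detected on 1 ALP array alone.

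Receptors, cytokines and surface proteins of lymphoid cells gave 3 calls among 19 measured genes, all higher in ALP, against 0.336% of all genes. Of the 19, 14 had both ALP arrays above both CMP arrays, against 20.4% of all genes. Their median difference was 0.53. Beside Il7r the calls were Ly6d and Il12a. Both Il7r and Ly6d were used in the ALP gate, so of the 3 calls Il12a alone is apart from the sort. Ly6d, whose surface protein marks the next, B-biased step and which the ALP gate excluded, had levels of 6.59 and 6.53 in ALP against 3.07 and 3.28 in CMP. Its RNA was therefore detected in both arrays of cells sorted as Ly6D-negative and in neither CMP array (at least 4.13-fold higher in ALP, adjusted p = 0.0103). Il12a, which encodes the p35 chain of IL-12 and of IL-35, had levels of 10.82 and 10.93 in ALP against 8.10 and 6.88 in CMP (3.39 ± 0.41 SE, adjusted p = 0.0245). All 4 arrays detected it, and the CMP arrays differed from each other by more than the ALP arrays did. Itgb7, an integrin chain used in homing to the gut, ran the other way at -2.23 and missed the threshold (adjusted p = 0.0758).

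**Figure D2:**
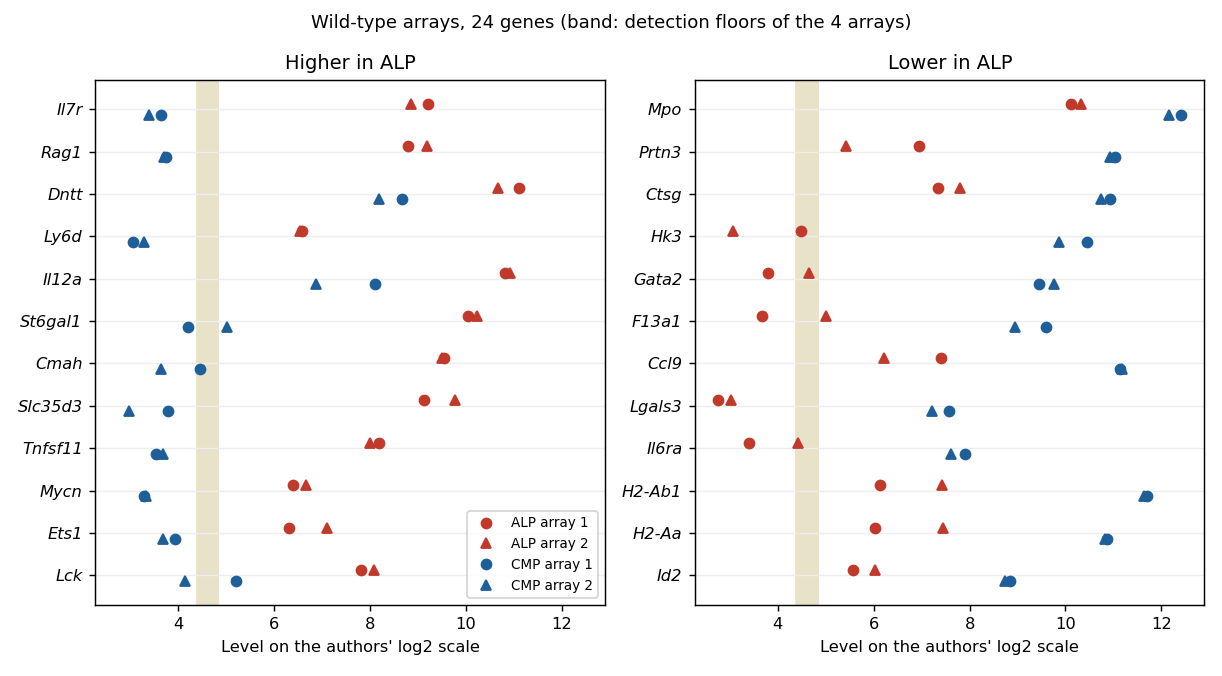
Levels of 12 genes higher and 12 genes lower in wild-type ALP (log2, x axis), with ALP arrays in red and CMP arrays in blue, circles for array 1 and triangles for array 2, and a band over the detection floors of the 4 arrays. Il7r, Rag1 and Ly6d lie left of the band in both CMP arrays, while Dntt and Il12a are far right of it in all 4 arrays.

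Markers of T and NK cells gave 1 call each, of 16 and 13 measured, against 0.739% of all genes called in either direction. Lck, the Src-family kinase of the T cell receptor, had levels of 7.82 and 8.08 in ALP, against 5.21 and 4.15 in CMP, where 1 array detected it (3.27 ± 0.38 SE, adjusted p = 0.0226). The defining T cell genes Cd3d and Cd3e were not detected on any of the 4 arrays, and the median over 16 T lymphoid genes was 0.50. Among 13 NK and innate lymphoid genes the call was Id2, lower in ALP and described with the dendritic cell genes. Il18r1, a chain of the IL-18 receptor, had a difference of 4.64 but with CMP arrays at 6.03 and 3.08, and did not pass (adjusted p = 0.156). Its partner chain Il18rap passed, at 9.15 and 9.13 in ALP against 6.32 and 5.38 in CMP (3.29 ± 0.35 SE, adjusted p = 0.0164).

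Beyond the listed lymphoid genes, a pair of sialic acid enzymes was among the largest differences. St6gal1, the sialyltransferase that adds alpha-2,6-linked sialic acid to glycoproteins, had levels of 10.04 and 10.24 in ALP against 4.20 and 5.03 in CMP (5.53 ± 0.45 SE, adjusted p = 0.0103). Cmah, which hydroxylates the sugar nucleotide form of sialic acid, had levels of 9.56 and 9.51 in ALP against 4.46 and 3.63 in CMP (5.49 ± 0.33 SE, adjusted p = 0.00552). CMP detected each of them on 1 array, within 0.5 of its floor, and ALP on both arrays at high level. The receptor Cd22, which binds the sugars these enzymes make, was lower in ALP, as given above.

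The largest difference of all the genes higher in ALP belonged to Slc35d3, an orphan member of the nucleotide sugar transporter family. Its levels were 9.14 and 9.78 in ALP, against 3.79 and 2.98 in CMP, at least 30.7-fold higher in ALP (adjusted p = 0.00552). Tnfsf11, the cytokine RANKL, had levels of 8.19 and 8.01 in ALP against 3.54 and 3.68 in CMP (at least 12-fold, adjusted p = 0.0169). The other genes among the 12 largest were Gm5111 (at least 19.8-fold), Klhl30, a kelch-repeat protein (at least 11.4-fold), Myl10, a myosin light chain (at least 10.5-fold), Bfsp2, a filament protein known from the lens (at least 7.41-fold), Pzp, an alpha-macroglobulin (at least 6.41-fold), and Gimap7, a GTPase of lymphocytes (difference 4.03). CMP did not detect the first 5 of these on either array.

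Genes known from plasmacytoid dendritic cells, which also carry lymphoid traits, had a median difference of 0.90 over 17 measured genes. Of the 17, 3 were higher in ALP and none lower, against 0.336% of all genes higher. In 9 of the 17 both ALP arrays lay above both CMP arrays, a pattern of 20.4% of all genes. Cox6a2, a subunit of cytochrome oxidase, had levels of 10.77 and 11.53 in ALP against 7.57 and 7.78 in CMP (3.47 ± 0.46 SE, adjusted p = 0.038). Siglech, a receptor of the Siglec family that defines these cells in the mouse, had levels of 5.77 and 5.97 in ALP against 3.47 and 3.63 in CMP (at least 2.56-fold, adjusted p = 0.0162). The third was Ly6d. Tcf4, the factor that specifies the lineage, was at 10.10 and 10.58 in ALP against 9.35 and 9.54 in CMP, a difference of 0.90 that did not pass (adjusted p = 0.277). Irf7 was not detected on any of the 4 arrays.

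Stem cell and multipotent progenitor genes gave calls in both directions. Of 23 measured, 2 were higher in ALP and 1 was lower, against 0.336% and 0.403% of all genes. Mycn, a Myc-family factor of stem cells, had levels of 6.40 and 6.68 in ALP and was not detected in CMP, at 3.28 and 3.34 (at least 4.05-fold, adjusted p = 0.0184). Egr1, an immediate early factor, had levels of 11.79 and 11.81 in ALP against 10.04 and 9.19 in CMP (2.19 ± 0.32 SE, adjusted p = 0.047). It was the 1 call among 20 immediate early and heat shock genes, against 0.336% of all genes higher. Their median was 0.23 (0.11 without ALP array 1, 0.46 without CMP array 1), and their other members include Fos and Jun. The median over 23 stem cell genes was 0.21, with 0.11 without ALP array 2 and 0.45 without CMP array 1. Gata2, the third call, was lower in ALP.

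Genes of neutrophil primary granules were called in 1 direction. Of 17 measured, 5 were lower and none higher, against 0.403% of all genes lower. In 13 both ALP arrays lay below both CMP arrays, against 19.3% of all genes, and the median difference was -2.14, against 0.02 over all genes. Prtn3, which encodes proteinase 3, had levels of 6.95 and 5.43 in ALP against 11.04 and 10.94 in CMP (-4.80 ± 0.50 SE, adjusted p = 0.0162). Ctsg, which encodes cathepsin G, had levels of 7.35 and 7.80 in ALP against 10.92 and 10.73 in CMP (-3.25 ± 0.24 SE, adjusted p = 0.00871). Mpo, the myeloperoxidase gene, had levels of 10.11 and 10.32 in ALP against 12.42 and 12.16 in CMP (-2.07 ± 0.22 SE, adjusted p = 0.0163). All 3 were still detected on both ALP arrays, Mpo at a high level.

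The other members of this list called lower were Hk3 and Mgst1. Hk3, the hexokinase of myeloid cells, had levels of 4.48 and 3.07 in ALP against 10.45 and 9.86 in CMP (-6.38 ± 0.47 SE, adjusted p = 0.00871), and 1 ALP array detected it just above its floor. Mgst1, a microsomal glutathione transferase, had a difference of -2.56 (adjusted p = 0.0415). Neutrophil elastase, under its older symbol ELA2, had levels of 3.94 and 6.17 in ALP against 9.38 and 9.58 in CMP. The ALP arrays disagreed by more than 2 units there, and its difference of -4.42 did not pass (adjusted p = 0.0793). The membrane protein gene Ms4a3 (-4.07) and Rab44 (-3.85) did not pass either, at adjusted p of 0.0665 and 0.152.

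Genes of later neutrophil stages gave no call. Of 16 measured genes of late granules and neutrophil receptors none passed in limma. At an unadjusted limma p under 0.05 there were 2, against 11% of all genes. Their median was 0.10, and no more than 2 of them were detected on any of the 4 arrays. The 2 were Fpr2 and Ngp, both higher on both ALP arrays. Fpr2 had levels of 4.85 and 6.70 in ALP against 2.63 and 2.87 in CMP, where it was not detected (3.03 ± 0.58 SE, adjusted p = 0.0991). Ngp had a difference of 0.92 (adjusted p = 0.249). S100a8, Ltf and Cebpe, which switch on as neutrophils mature, were not detected on any of the 4. The 6 genes of the phagocyte NADPH oxidase gave no call either, and their median was -0.12. Of the 6, 1 had an unadjusted limma p under 0.05, against the same 11% of all genes.

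Monocyte and macrophage genes had 5 of 18 lower and none higher, against 0.403% of all genes lower, with a median of -0.51. F13a1, the A chain of coagulation factor XIII, had levels of 3.658 and 4.999 in ALP against 9.59 and 8.95 in CMP (-4.94 ± 0.53 SE, adjusted p = 0.0171). Lgals3, which encodes galectin-3, was at 2.76 and 3.02 in ALP, below the floor, against 7.58 and 7.21 in CMP (at least 6.89-fold lower, adjusted p = 0.00552). The chemokine gene Ccl9 had levels of 7.41 and 6.22 in ALP against 11.14 and 11.19 in CMP (-4.35 ± 0.39 SE, adjusted p = 0.0109). Ms4a6c, a membrane protein of the MS4A family, was at least 5.77-fold lower in ALP, and the lysosomal glycoprotein gene Cd68 had a difference of -3.31. In 8 of the 18 genes both ALP arrays lay below both CMP arrays and in 1 above, against 19.3% and 20.4% of all genes. In 9 of the 18 the arrays overlapped, and Cd14 and Adgre1 are among the members that gave no call.

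Receptors of myeloid cells, a list that holds Cd33 beside cytokine receptors, gave 2 calls higher in ALP and 1 lower. Over all genes the shares were 0.336% and 0.403%. Il6ra, the alpha chain of the IL-6 receptor, was not detected in ALP, at 3.39 and 4.42, against 7.90 and 7.61 in CMP (at least 8.86-fold lower, adjusted p = 0.0176). Il18rap, given above, and Cd33 were higher in ALP. The partner chain of Il18rap, Il18r1, was listed with the NK and innate lymphoid genes, so that Il18rap does not stand for myeloid cells alone. Cd33, a sialic acid-binding receptor used as a myeloid marker in humans, had levels of 8.36 and 7.85 in ALP against 6.03 and 5.90 in CMP (2.14 ± 0.27 SE, adjusted p = 0.0327). Csf1r, which encodes CD115, had levels of 3.73 and 4.60 in ALP against 6.74 and 6.74 in CMP, cells that were sorted as CD115-negative, and the difference of -2.58 did not pass (adjusted p = 0.0665). Of the 18 differences 8 were above 0 and 10 below, and their median was -0.28.

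Among 23 myeloid transcription factors, Klf4 was lower in ALP, and Mycn and Egr1, already described, were higher. Over all genes the shares were 0.403% lower and 0.336% higher. Klf4, a zinc finger factor of monocytes, was not detected in ALP, at 3.72 and 2.74, against 6.37 and 5.65 in CMP (at least 2.64-fold lower, adjusted p = 0.046). Spi1, which encodes PU.1, was lower on both ALP arrays, at 7.07 and 5.98 against 8.97 and 8.62 in CMP, but the difference of -2.27 did not pass (adjusted p = 0.0746). Irf8 itself had levels of 10.95 and 10.87 in ALP against 11.04 and 10.94 in CMP. Those values overlap, and the difference of -0.08 ± 0.21 SE was smaller than its error. The median of the list was -0.08.

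**Figure D3:**
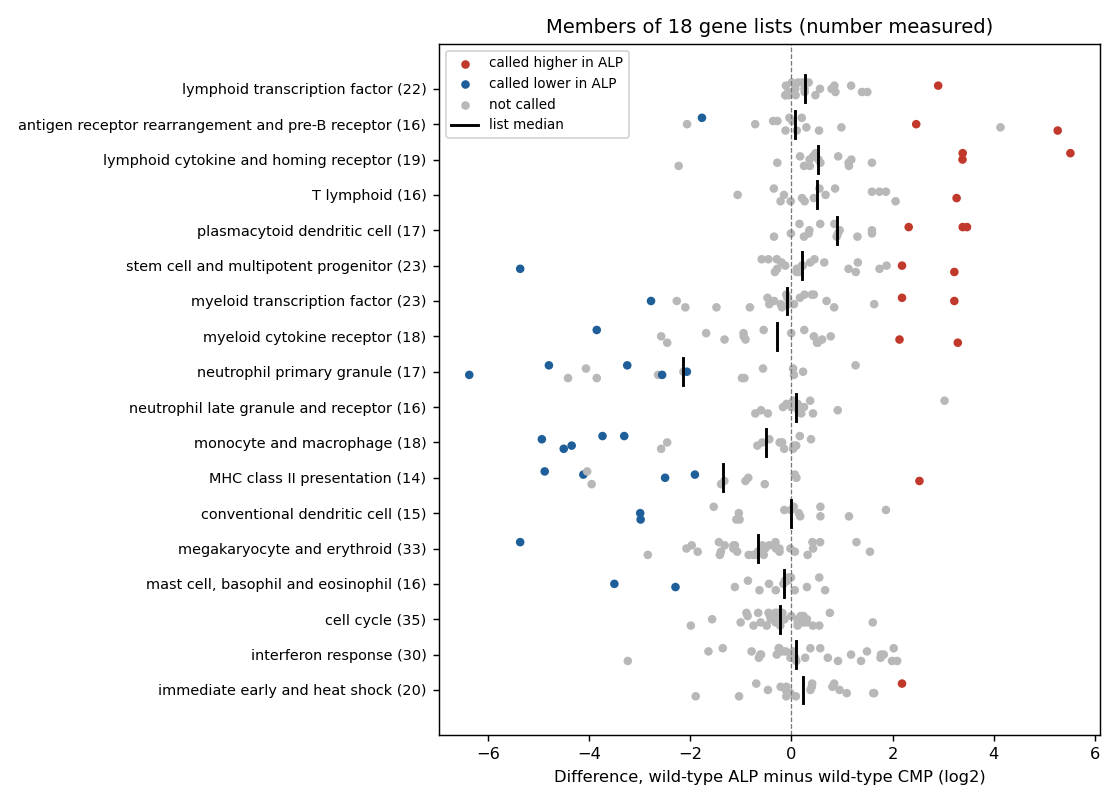
Difference between wild-type ALP and wild-type CMP (log2, x axis) for each measured member of 18 gene lists, red where higher in ALP, blue where lower, grey where the test was not passed, with the list median as a black bar. Over all measured members, undetected ones included, the medians run between -2.14 for primary granule genes and 0.90 for plasmacytoid dendritic cell genes.

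The list medians given here cover every measured member, including those that no wild-type array detected. Over the members detected on at least 1 of the 4 wild-type arrays, the median was -2.94 for 10 monocyte and macrophage genes, -2.35 for 16 primary granule genes, -1.12 for 5 mast cell, basophil and eosinophil genes, -1.07 for 25 megakaryocyte and erythroid genes and -1.04 for 9 conventional dendritic cell genes. It was 1.59 for 9 T lymphoid genes, 0.95 for 13 plasmacytoid dendritic cell genes, 0.52 for 16 lymphoid transcription factors and 0.51 for 16 stem cell genes. A gene that passes through its brighter population alone has to differ, so these values describe the detected members and support no comparison.

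MHC class II genes were called in both directions. Of 14 measured, 4 were lower in ALP and 1 was higher, against 0.403% and 0.336% of all genes. In 9 of the 14 both ALP arrays lay below both CMP arrays, against 19.3% of all genes. The median difference was -1.36. H2-Ab1, the beta chain of I-A, had levels of 6.14 and 7.42 in ALP against 11.69 and 11.63 in CMP (-4.88 ± 0.41 SE, adjusted p = 0.0103). H2-Aa, its alpha chain, had levels of 6.02 and 7.44 in ALP against 10.87 and 10.83 in CMP (-4.12 ± 0.49 SE, adjusted p = 0.0232). The ALP arrays differed from each other by over 1 unit in both genes, array 2 being the higher, and stayed far under the CMP arrays.

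The remaining class II genes called lower were Ifi30, a thiol reductase of antigen processing (-2.50, adjusted p = 0.0258), and Marchf1, a ubiquitin ligase that takes class II off the surface (at least 1.48-fold lower, adjusted p = 0.0198). Cd74, the invariant chain, and H2-Eb1 had differences of -3.95 and -4.04 and did not pass (adjusted p = 0.0782 and 0.0617). H2-Ob, a chain of the inhibitor of peptide loading H2-O, ran the other way, at 10.60 and 10.45 in ALP against 8.06 and 7.92 in CMP (2.53 ± 0.25 SE, adjusted p = 0.0151). Its partner H2-Oa did not follow it, with a difference of -1.39 that did not pass (adjusted p = 0.372).

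Conventional dendritic cell genes had a median of -0.01 over 15 genes. Of these, 2 were lower in ALP and none higher, against 0.403% of all genes lower. Batf3, a factor of cross-presenting dendritic cells, was not detected in ALP, at 3.50 and 3.24, against 6.41 and 6.29 in CMP (at least 3.34-fold lower, adjusted p = 0.00871). Id2, an inhibitor of E proteins that is needed by these cells and by innate lymphoid cells, had levels of 5.57 and 6.03 in ALP against 8.84 and 8.74 in CMP (-2.99 ± 0.25 SE, adjusted p = 0.0103). Itgax, which encodes the CD11c used to deplete the CMP gate, was detected on all 4 arrays, at 6.11 and 7.06 in ALP against 5.65 and 6.38 in CMP.

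The markers of other lineages in the CMP arrays belong beside these results. Gata2, a factor of stem, mast and megakaryocyte-erythroid cells, was not detected in ALP, at 3.80 and 4.66, against 9.44 and 9.76 in CMP (at least 31.7-fold lower, adjusted p = 0.0103). It was the 1 call among 33 megakaryocyte and erythroid genes, against 0.403% of all genes lower. Their median was -0.66. CMP array 2 detected 24 of the 33, against 16 on CMP array 1, 13 on ALP array 1 and 14 on ALP array 2. Klf1, Gp5 and Aqp1 had 8.27, 7.59 and 8.72 on CMP array 2, against 3.99, 3.41 and 3.80 on CMP array 1, and so showed red cell and platelet genes on 1 array alone. The levels of the 33 genes, taken out of log2 and summed, came to 13844 and 14642 in ALP against 11970 and 16188 in CMP. The list's median was -0.10 without CMP array 2 and -1.31 without CMP array 1, while Gata2 was high on both. Tal1 was detected on both CMP arrays and on neither ALP array, at 6.00 and 7.32 against 4.19 and 3.44, without passing (-2.84, adjusted p = 0.0852). Of the 33 genes, 12 had both ALP arrays below both CMP arrays and 5 above, against 19.3% and 20.4% of all genes. Haemoglobin alpha (Hba-a1) was not detected on any of the 4 arrays. The part of these transcripts in the other differences was not tested.

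Mast cell and basophil genes were lower in 2 of 16, against 0.403% of all genes, with a median of -0.14. Mcpt8, a basophil protease, had levels of 6.44 and 6.52 in ALP against 8.80 and 8.75 in CMP (-2.30 ± 0.20 SE, adjusted p = 0.0103). Hdc, which makes histamine, had levels of 4.40 and 5.0 in ALP against 7.95 and 8.46 in CMP (-3.51 ± 0.48 SE, adjusted p = 0.0421). The mast cell genes Cpa3 and Cma1 gave no call.

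The genes with the largest differences downward in ALP included several outside these lists. Ckb, the brain-type creatine kinase, had levels of 3.45 and 3.32 in ALP, below the floor, against 9.84 and 9.93 in CMP (at least 38.7-fold lower, adjusted p = 0.0298). Dram1, a lysosomal protein of autophagy, was at 3.36 and 2.98 in ALP against 9.36 and 9.42 in CMP (at least 27.5-fold lower, adjusted p = 0.00705). P2ry6, a receptor for UDP, was at 3.25 and 3.79 in ALP against 8.25 and 8.70 in CMP (at least 14.5-fold lower, adjusted p = 0.00552). None of the 3 was detected on either ALP array, and all were far above the floor in both CMP arrays. Bcl6, a transcriptional repressor, was at least 8.98-fold lower, and Aatk, a kinase, had a difference of -5.49 with ALP arrays at 6.04 and 3.30. LOC641240, kept under its deposited name, was at 6.43 and 7.70 in ALP against 11.85 and 11.75 in CMP (-4.74 ± 0.43 SE, adjusted p = 0.0109). These levels lay close to those of the class II gene H2-Ab1, at 6.14 and 7.42 in ALP against 11.69 and 11.63 in CMP. Whether the 2 entries read the same transcript was not tested, so LOC641240 may not be a separate difference.

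No gene of the cell cycle or interferon response lists passed in limma. At an unadjusted limma p under 0.05 there were 5 of 35 and 9 of 30, against 11% of all genes. The median of the 35 cell cycle genes was -0.23, and 32 to 34 of them were detected on each array. Ccnd1, which encodes cyclin D1, had levels of 9.42 and 8.38 in ALP against 10.49 and 10.45 in CMP, without passing (-1.57, adjusted p = 0.16). The 30 interferon response genes had a median of 0.08, and some of them split the ALP arrays: Oas2 was at 7.83 on array 1 and 3.33 on array 2. Stromal and endothelial genes gave no call among 14, and mature B and plasma cell genes none among 14, with 0 genes of either list at an unadjusted p under 0.05.

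The genes of the sort itself were a check of the labels and not a result. Flt3, which encodes the Flk2 that both gates required, was high in both, at 10.57 and 10.43 in ALP against 9.88 and 9.98 in CMP. Cd34, required of CMP alone, was at 8.07 and 8.23 in ALP against 8.30 and 8.57 in CMP. Fcgr2b and Fcgr3, which encode the CD16/32 excluded from CMP, were higher on average in CMP, and neither difference passed the test (adjusted p = 0.0975 and 0.701). Fcgr2b was at 3.70 and 3.47 in ALP against 5.94 and 5.14 in CMP, and Fcgr3 at 6.14 and 2.87 in ALP against 6.54 and 5.23 in CMP, and both CMP arrays detected each of them. Ly6a, which encodes the Sca-1 excluded from CMP, was at 6.67 and 7.59 in ALP against 5.89 and 4.61 in CMP. Of 10 sort markers, Il7r and Ly6d alone passed the test, both higher in ALP, against 0.336% of all genes. Kit was not analysed here.

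The same contrast in IRF-8 knockout mice uses 4 arrays that the wild-type contrast does not, although all 8 share 1 estimate of the spread. Irf8 had levels of 11.39 and 11.16 in knockout ALP and 10.81 and 10.79 in knockout CMP, near those of the wild type. Where its probe lies relative to the deleted part was not determined here, so the genotype labels were not checked by it. Of the 61 genes higher in wild-type ALP, 57 had the same sign in the knockout and 52 had both knockout ALP arrays above both knockout CMP arrays, against 17.9% of all genes. Of the 73 genes lower in wild-type ALP, 55 had the same sign and 44 lay fully below, against 20.8% of all genes. The median difference in the knockout was 1.69 for the genes higher in wild-type ALP, against 3.06 in the wild type, and -0.67 for the genes lower, against -3.01. Since the genes were chosen for their wild-type difference, a smaller value in other arrays is built into that choice.

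Of all genes, 5.84% had an unadjusted p under 0.05 in the knockout contrast, and of the wild-type calls 46 of the 61 and 32 of the 73 did so in the same direction. At an adjusted p under 0.05 that contrast gave 3 genes, 0.0165% of those tested, namely Il7r, Rag1 and Slc27a2, all higher in ALP. Il7r had levels of 8.57 and 8.42 in knockout ALP against 4.21 and 3.98 in knockout CMP (4.40, adjusted p = 0.0141). Rag1 had levels of 9.29 and 8.42 in knockout ALP against 3.97 and 3.54 in knockout CMP (5.10, adjusted p = 0.0203). Slc27a2, a fatty acid transport protein, had a difference of 3.94 in the knockout and 2.95 in the wild type. Tnfsf11 stayed near its wild-type size, at 4.77, and Gata2 had -4.04, without passing in the knockout.

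Class II and primary granule genes had smaller median differences in the knockout, a contrast between lists that was not tested. H2-Ab1 had levels of 8.83 and 8.80 in knockout ALP against 8.75 and 8.50 in knockout CMP, a difference of 0.19. Its partner chain H2-Aa lay between 2.97 and 3.65 on the knockout arrays, below the floor of each (4.26 to 4.45). The knockout difference of H2-Aa, 0.15, therefore cannot tell whether the populations differ in it. H2-Ob lay well above the floor on every knockout array and kept a difference of 2.23. The class II list, members below the floor included, had a median of 0.23. The primary granule list had a median of -0.73, with Hk3 at 9.74 and 9.80 in knockout ALP against 10.81 and 11.03 in knockout CMP. Whether the ALP minus CMP difference itself depended on genotype was tested for every gene, and 3 genes passed (0.0165%), P2ry6, Id2 and Lgals3. Neither H2-Ab1 nor Hk3 passed that test, at adjusted p of 0.144 and 0.194.

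**Figure D4:**
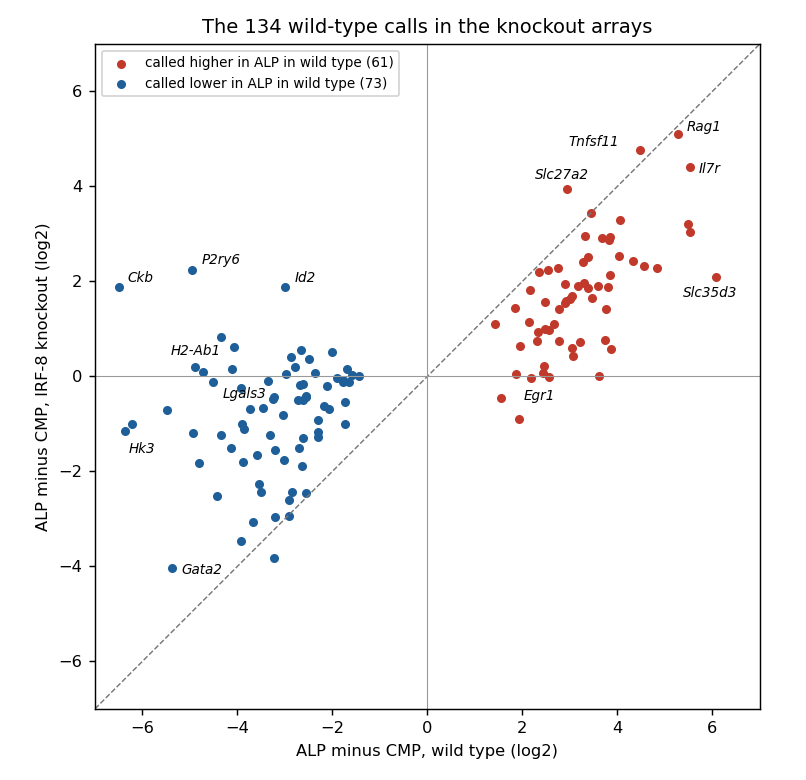
ALP minus CMP difference in wild type (log2, x axis) against the same difference in IRF-8 knockout (log2, y axis) for the 134 genes called in wild type, with the line of equality dashed. Rag1 and Tnfsf11 lie on the line, H2-Ab1 and Lgals3 lie near 0 on the y axis, and P2ry6 and Id2 lie on the other side of 0.

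P2ry6 had levels of 5.43 and 5.65 in knockout ALP against 3.38 and 3.20 in knockout CMP, opposite to the wild-type order. Id2 had levels of 5.95 and 5.92 in knockout ALP against 3.93 and 4.20 in knockout CMP, also opposite. Lgals3 was between 2.85 and 3.10 on all 4 knockout arrays, below the floor of each (4.26 to 4.45). Its knockout difference therefore cannot tell whether the populations differ in it. The knockout CMP levels of P2ry6 and Id2 also lay below the floors of those arrays. In these 3 genes the CMP arrays are those that differ most between genotypes, low in knockout and high in wild type.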

How the data were processed

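RNA of 8 Illumina bead arrays was compared, 2 in each of 4 groups taken from the sample titles. Values of the deposited gene table are on a log2 scale and were quantile normalized by the authors, as inferred from the values, since scanner probes of a given rank have the same deposited value on every array wherever a gene has 1 probe. They reach below the log2 of any scanner signal, so a background was taken off first. Some genes combine several probes. The deposited scanner table holds a signal intensity and a detection p-value for each of 25697 probes and has no gene names. For that processing no tools are named in the labels, and no slide or scan date was available to test. A detection column without a replicate number was assigned to the array left over in its group.

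Probes were linked to genes where their normalized values over the 8 arrays agreed within 0.0003 (log2), 13171 genes with 1 probe and 2950 with a mean of 2. Of 500 genes with shuffled values, 0 were linked. Genes not linked (2011) were counted as detected above the level floor of the array. Symbols were matched to RefSeq for 14305 genes and by synonym for 2659, and 1168 names were kept.

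All 8 arrays were fitted as 4 group means on the deposited log2 values of all 18132 genes with limma 3.58.1 in R 4.3.3 (4 residual and 2.48 prior degrees of freedom), contrasts were tested with empirical Bayes, and p-values were adjusted by Benjamini-Hochberg over all genes at 0.05. The procedure was tested on simulated data. With 2 arrays a group, the number of arrays limits the precision. The words "at least" mark a fold whose dimmer group was detected on neither array, taken against the higher of the array's floor and the gene's own level. Other steps used Python 3.11.15, numpy 2.4.6, pandas 2.3.3 and scipy 1.17.1.

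Genes were chosen for naming as the 12 largest calls each way, up to 4 called and 3 other members of each of 23 lists, the sort markers and Irf8, and genes whose difference depended on genotype. Some uncalled list members so chosen, such as Klrd1 and Samd9l, are not described. Mpo, Cd68, Marchf1, Slc27a2 and the markers said not to be detected or to give no call were chosen after their values were seen, as were Tcf4, Ebf1, Klf1 and the motifs. The comparison, its lists and the alternatives were chosen with earlier results of these data known. Of the list entries, 35 were not analysed here under the listed symbol. Kit counts more than once among them, and Elane was read under its older symbol ELA2.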

Additional observations from a re-analysis of the deposited data

Results flagged for a closer look

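In 3 genes the ALP minus CMP difference depended on IRF-8 genotype by limma's test of that difference (wild type minus knockout, log2, Benjamini-Hochberg over 18132 genes). P2ry6, the UDP receptor, had -7.20 (adjusted p = 0.0169), with ALP below CMP on both wild-type arrays and above CMP on both knockout arrays. Id2, the E protein inhibitor, had -4.87 (adjusted p = 0.0393) and the same reversal of order. Lgals3, which encodes galectin-3, had -4.39 (adjusted p = 0.0408), from a wild-type difference of -4.51 and a knockout difference of -0.12 whose arrays overlapped. All knockout levels of Lgals3 lay below the detection floor, so that -0.12 cannot tell whether ALP and CMP differ in the knockout. Of all genes, 6.59% had an unadjusted p under 0.05 in this test. The number of genes passing was 1 with neqc and 0 with the replicate block. It was also 0 when either wild-type CMP array or any 1 of the 4 knockout arrays was left out.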

How the results depend on the processing

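For wild-type ALP minus CMP, the 134 genes became 14 at an adjusted p under 0.01, 297 at 0.1, 88 with array weights and 0 with its 4 arrays alone, and ran between 0 and 904 when 1 array was left out. Counts of 103 to 163 came from the other settings (neqc, no background correction or median scaling of the scanner signals, both detection filters, an intensity trend with robust fitting). The knockout contrast had 3 genes, 0 at an adjusted p under 0.01, 9 at 0.1, 7 with scanner signals without background correction, 1 with the stricter detection filter, 0 with its 4 arrays alone and 0 to 3 when 1 array was left out. The test of the difference between genotypes had 3 genes, 0 at 0.01, 1 with neqc, with median scaling and with detection on 2 or more arrays, 6 without background correction, 0 with the stricter filter, 7 with a trend and robust fitting, and 0 to 78 when 1 array was left out. With the replicate number as a block (the replicate block fit) these 3 counts were 104, 1 and 0. The labels do not say that replicate numbers pair the arrays, and deviations of same-numbered wild-type ALP and CMP arrays correlated at 0.0426. Of 920 values of named genes under the settings that keep all arrays, 795 kept direction and side of the threshold, 81 were no longer past it, 43 were newly past it, 1 moved and 0 reversed; of 928 with 1 array left out the numbers were 725, 175, 21, 7 and 0. Direction could change only with the scanner signals or with a wild-type array left out. The other fits reuse the same wild-type differences, so that their kept direction was fixed in advance and is no sign of stability. The cause of the changes was not tested, except that 4 arrays alone leave 2 residual degrees of freedom. Genes under the detection floor have no order among themselves. The slide as a block was not run, since the labels name none.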
